A study of Homo sapiens with 17 samples.

Results

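ITPK1, RNU5F-1, AHNAK2, DHRS2, PCYOX1L, IL17RE, ADIRF and PSKH1 are 8 human genes of unrelated function that stood far apart between PC3M cells given JMJD6 siRNA and cells given control siRNA. They were picked by name for those differences out of 14613 genes listed in either of the 2 deposited expression tables. The contrast between JMJD6 siRNA (siJMJD6) and control siRNA (siNT) is therefore described here and not tested, and the tests concern stress and HSF1 KO. All 8 genes have a row in both tables and passed the filter on low values in both.

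PC3M is an established metastatic line of human prostate cancer cells, and messenger RNA was read as 3′ tags in 17 libraries. In the MG132 experiment, 2 libraries each came from cells with siJMJD6 under MG132, from HSF1 knockout (KO) cells under MG132, from cells with siNT under MG132 and from cells with siNT in DMSO. MG132, a proteasome inhibitor, was given at 2.5 µM for 4 h. In the heat shock experiment, 3 libraries each came from siJMJD6 cells after heat shock, siNT cells after heat shock and siNT cells kept basal, with heat shock at 42 °C for 1 h and a recovery of 2 h. Transfection lasted 72 h, and no siRNA is named for the KO libraries, whose letters A and B are taken as 2 replicates, since nothing says whether they are separate clones. Nothing says either that libraries of 1 group came from separate cultures, so p-values measure a spread between libraries that may be technical.

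JMJD6 is a JmjC-domain oxygenase of the nucleus that hydroxylates lysines of splicing regulators and other proteins. HSF1 is the transcription factor that switches on chaperone genes when proteins misfold, as they do after heat or when the proteasome is blocked. The 8 genes encode an inositol phosphate kinase (ITPK1), a U5 small nuclear RNA (RNU5F-1), a giant scaffold protein (AHNAK2), a short-chain dehydrogenase (DHRS2), a relative of prenylcysteine oxidase (PCYOX1L), a receptor chain for interleukin 17C (IL17RE), a factor named for its role in fat cell formation (ADIRF) and a protein serine kinase (PSKH1).

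RNU5F-1 is 1 of several closely related U5 genes, which matters for counting because tags of 1 copy could be credited to another. U5 is part of the spliceosome, where it holds the ends of the exons being joined. RNU5F-1 lies at chr1:44721786-44721902 on the minus strand of GRCh38, by the GENCODE 29 annotation, and is 117 bases long. In the MG132 table RNU5B-1 reached at most 5.68 normalised counts and RNU5A-1 at most 1.92, against up to 242 for RNU5F-1.

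Promoters are shown for DHRS2, PCYOX1L and AHNAK2, chosen with their letters known, because these 3 genes were higher with siJMJD6 and their windows run from CpG-free to CpG-rich. Windows of 250 bases before to 50 after the start were taken from RefSeq (GRCh38.p14) and matched 7 of the 8 genes in 10 windows. Capitals mark the TATA box letters TATAAA in DHRS2 (chr14:23629865-23630164, plus strand), the CCAAT letters in PCYOX1L (chr5:149357796-149358095, plus strand) and the GC box letters GGGCGG or their reverse complement in the first of the AHNAK2 windows (chr14:104978325-104978624, minus strand).
DHRS2: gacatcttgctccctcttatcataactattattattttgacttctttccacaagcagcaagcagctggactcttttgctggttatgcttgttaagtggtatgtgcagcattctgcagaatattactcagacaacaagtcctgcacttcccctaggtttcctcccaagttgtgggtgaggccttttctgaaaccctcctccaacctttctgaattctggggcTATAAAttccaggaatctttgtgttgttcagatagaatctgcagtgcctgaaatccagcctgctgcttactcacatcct
PCYOX1L: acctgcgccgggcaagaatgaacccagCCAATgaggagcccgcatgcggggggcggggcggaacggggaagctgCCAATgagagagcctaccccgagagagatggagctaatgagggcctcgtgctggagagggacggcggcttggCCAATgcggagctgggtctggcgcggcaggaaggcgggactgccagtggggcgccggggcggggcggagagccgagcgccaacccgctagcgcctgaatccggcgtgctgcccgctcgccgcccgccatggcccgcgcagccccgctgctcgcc
AHNAK2: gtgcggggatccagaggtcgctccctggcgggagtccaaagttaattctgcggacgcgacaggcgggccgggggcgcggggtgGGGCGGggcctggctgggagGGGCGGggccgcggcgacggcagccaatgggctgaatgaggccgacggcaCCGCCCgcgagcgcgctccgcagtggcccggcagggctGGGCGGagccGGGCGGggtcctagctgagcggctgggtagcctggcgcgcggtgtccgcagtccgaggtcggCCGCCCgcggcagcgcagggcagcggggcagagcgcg
The DHRS2 window holds 1 TATAAA and 0 CpG pairs, the PCYOX1L window 3 CCAAT and 33 CpG pairs, and the AHNAK2 window 6 GC boxes and 42 CpG pairs. Over 35116 promoter windows of the same length, the quartiles of CpG pairs were 4, 14 and 28. Searched on both strands, TATAAA occurred in 11.5%, CCAAT in 34.6% and GGGCGG in 45.0% of those windows. The core of the heat shock element that HSF1 binds, GAANNTTC, occurred in 0 of the 10 windows, which cover 7 of the 8 genes. It occurred in 6.77% of all windows. The 0 says only that these letters are not in these windows.

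Values are the authors' normalised counts, which summed to between 1505830 and 1819640 per library. The siRNA and the knockout showed in their own targets. JMJD6 (chr17:76712832-76726799, minus strand) had 26.6 and 16.6 normalised counts in siJMJD6 cells under MG132, against 167 and 129.8 in siNT cells under MG132. In the heat shock table it had 9.72, 7.66 and 14.6 in siJMJD6 cells, against 209, 210.2 and 253 in siNT cells. HSF1 had 285 in KO library A and 175 in KO library B, whereas siNT cells under MG132 had 1687 and 1884, but a 3′ tag outside the deleted part would not check the deletion. Among epithelial markers, KRT18 ranged over the libraries of both tables between 725 and 1401 normalised counts, KRT8 between 15.5 and 143, EPCAM between 72.2 and 282 and CDH1 between 11.99 and 108.

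The 2 genes that were lower with siJMJD6 were ITPK1 and RNU5F-1. ITPK1 makes higher inositol phosphates by phosphorylating inositol trisphosphates and tetrakisphosphates, and lies at chr14:92936914-93116320 on the minus strand. It had 16.0 and 8.26 normalised counts in siJMJD6 cells under MG132, against 95.8 and 152 in siNT cells under MG132. With heat shock it had 9.70, 9.78 and 4.83 in siJMJD6 cells, against 120.0, 99.8 and 102 in siNT cells. Every siJMJD6 library lay below every siNT library, including the unstressed ones, which held 97.4 and 106 in DMSO and 94.5, 127 and 97.1 at basal. HSF1 KO cells under MG132 had 154 and 123, which is among the siNT values or above them. On the log2 scale the siJMJD6 minus siNT difference was -3.28 ± 0.36 (SE) under MG132 and -3.62 ± 0.22 after heat shock, the 11th lowest of 9778 genes and the 2nd lowest of 9831.

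RNU5F-1 was also lowest in the siJMJD6 libraries. It had 9.66 and 14.8 normalised counts in siJMJD6 cells under MG132, against 179 and 214 in siNT cells under MG132, with 199 and 124 for siNT cells in DMSO. After heat shock it had 13.9, 17.2 and 17.6 in siJMJD6 cells, against 191, 152 and 109.6 in siNT cells and 93.6, 91.3 and 96.7 at basal. No siJMJD6 library reached any other library of its table. The KO libraries were far apart, with 242 in A and 83.6 in B. The siJMJD6 minus siNT difference was -3.92 ± 0.44 under MG132 and -3.11 ± 0.18 after heat shock, the 3rd and the 6th lowest of all genes tested.

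RNU5F-1 lies inside the gene ARMH1 (chr1:44674692-44725591), listed in the tables under its older symbol C1orf228, on the opposite strand and with 0 exonic bases shared. C1orf228 had 15.8 and 7.44 normalised counts in siJMJD6 cells under MG132, against 0.0214 and 0 in siNT cells under MG132, with 0 for both DMSO libraries. In the heat shock table it had 3.14, 2.12 and 4.93 in siJMJD6 cells, against 0, 0.695 and 0 in heat-shocked siNT cells. At basal it had 0.116, 0 and 2.43, so that 1 basal library lay above 1 siJMJD6 library. The 2 genes at this place thus stood in opposite order in the siJMJD6 and stressed siNT groups of both experiments. C1orf228 was below the filter on low values and was not tested. The sources used here do not give the strand setting of the counting, so reads of the 2 strands cannot be told apart, and U5 RNA ends without the poly(A) tail from which this library type is primed.

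The other 6 genes were higher with siJMJD6. AHNAK2, a very large scaffold protein related to AHNAK, lies at chr14:104937244-104978357 on the minus strand. It had 628 and 823 normalised counts in siJMJD6 cells under MG132, against 58.8 and 76.5 in siNT cells under MG132. With heat shock it had 585, 550.1 and 556 in siJMJD6 cells, against 84.9, 65.4 and 70.6 in siNT cells. The siNT libraries without stress held 98.8 and 84.7 in DMSO and 109, 93.4 and 109 at basal. The KO libraries, at 159 and 167, lay between the siJMJD6 and the siNT libraries. The siJMJD6 minus siNT difference was 3.40 ± 0.26 under MG132 and 2.93 ± 0.12 after heat shock, the 43rd highest of 9778 genes and the 27th highest of 9831.

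DHRS2, an NADPH-dependent dicarbonyl reductase of mitochondria and nucleus, lies at chr14:23630115-23645639 on the plus strand. It had 174 and 207 normalised counts in siJMJD6 cells under MG132, against 17.6 and 87.0 in siNT cells under MG132. After heat shock it had 172, 237 and 208 in siJMJD6 cells, against 7.60, 16.8 and 21.2 in siNT cells. The groups did not overlap, but in the MG132 table the siNT cells were uneven, with 2.46 and 65.4 in DMSO as well, while the basal libraries of the other table were close together at 18.8, 19.4 and 20.9. HSF1 KO cells had 29.7 and 14.5. The difference was 2.24 ± 1.00 under MG132, the 191st highest of 9778 genes, and 3.77 ± 0.25 after heat shock, the 4th highest of 9831. The SE under MG132 was the largest of the 8 genes.

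PCYOX1L (chr5:149358007-149369653, plus strand) is named for its likeness to PCYOX1, the lysosomal oxidase that breaks down prenylated cysteine. It had 199.7 and 153 normalised counts in siJMJD6 cells under MG132, against 35.1 and 33.0 in siNT cells under MG132. In the heat shock table it had 160.4, 186 and 178 in siJMJD6 cells, against 14.4, 21.6 and 23.4 in siNT cells. The 2 siJMJD6 groups held similar values in the 2 tables, which were normalised separately and are set side by side only. KO cells had 50.5 and 44.4, DMSO libraries 29.6 and 43.7, and basal libraries 24.2, 30.0 and 40.9. The siJMJD6 minus siNT differences were 2.33 ± 0.33 under MG132 and 3.11 ± 0.21 after heat shock, the 175th highest of 9778 genes and the 20th highest of 9831.

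IL17RE pairs with IL17RA to form the receptor for interleukin 17C. It lies at chr3:9902612-9916402 on the plus strand, followed after 671 bases on the same strand by IL17RC (chr3:9917074-9933630), which forms the receptor for interleukins 17A and 17F with IL17RA. IL17RE had 630.3 and 712 normalised counts in siJMJD6 cells under MG132, against 55.7 and 82.2 in siNT cells under MG132. With heat shock it had 164, 129.6 and 178 in siJMJD6 cells, against 55.9, 60.9 and 50.2 in siNT cells. KO cells had 80.2 and 72.2, DMSO libraries 87.4 and 81.8, and basal libraries 52.3, 53.6 and 72.7. The siJMJD6 groups were above all others. They differed from siNT cells by 3.29 ± 0.27 on the log2 scale under MG132, the 51st highest of 9778 genes. After heat shock the difference was 1.47 ± 0.16, the 308th highest of 9831 and the smallest of the 8 genes.

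IL17RC stood in another order. It had 489 and 287 normalised counts in siJMJD6 cells under MG132, against 386 and 393 in siNT cells under MG132, so that the groups overlapped. After heat shock it had 59.3, 79.8 and 73.5 in siJMJD6 cells, against 176, 201 and 125 in siNT cells, with every siJMJD6 library lower. In limma's test of siJMJD6 against siNT cells, both after heat shock, IL17RC was lower by 1.21 ± 0.15 on the log2 scale (adjusted p = 3.02e-08, Benjamini-Hochberg over 9831 genes). Under MG132 the siJMJD6 minus siNT difference was -0.06 ± 0.33 (adjusted p = 0.932). The difference between the 2 experiments was not tested.

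**Figure D1:**
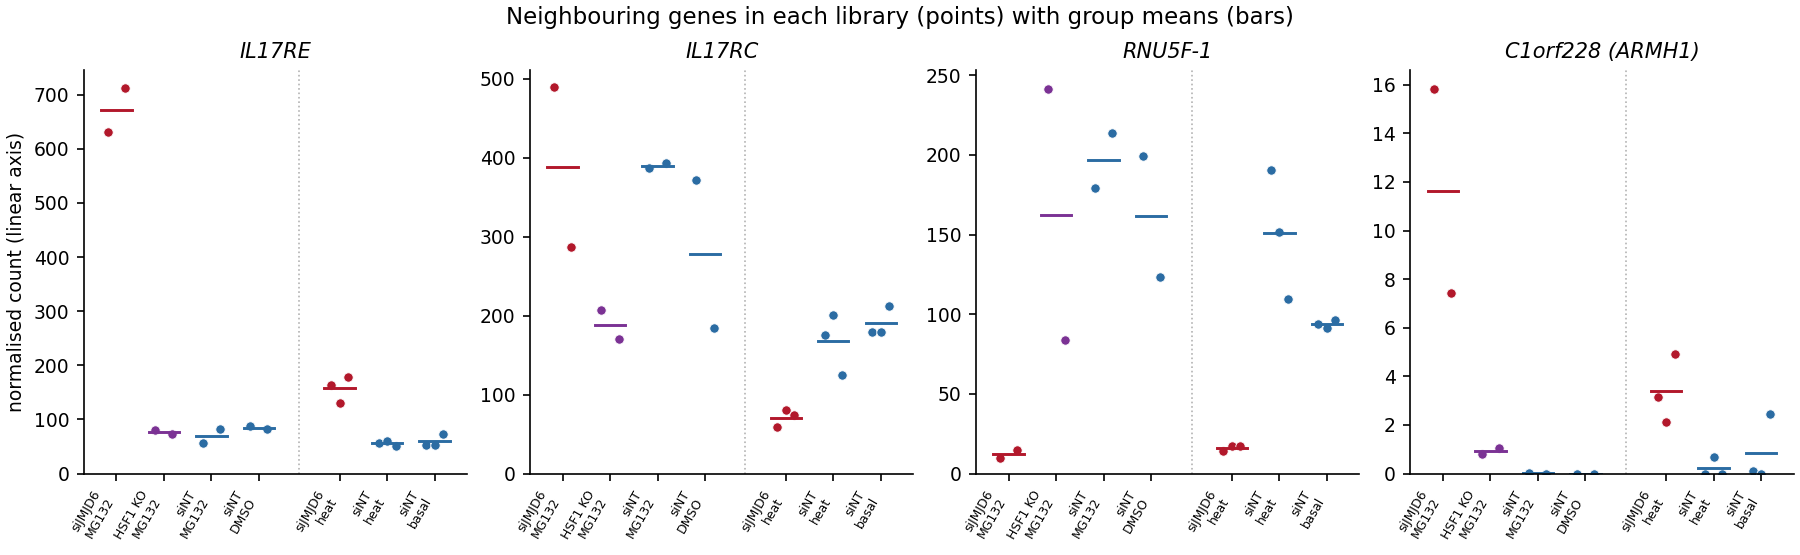
Normalised counts of IL17RE, IL17RC, RNU5F-1 and C1orf228 (linear axis, 1 panel per gene) in every library, with each group on the x axis, points for libraries and bars for group means. IL17RE is highest in the 2 siJMJD6 groups, and IL17RC is lowest in siJMJD6 cells after heat shock. RNU5F-1 and C1orf228 stand in opposite order between siJMJD6 and stressed siNT cells.

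ADIRF, a small protein that promotes fat cell formation when overexpressed, lies at chr10:86968192-86983934 on the plus strand. It had 372 and 196 normalised counts in siJMJD6 cells under MG132, against 35.1 and 24.5 in siNT cells under MG132, with 19.1 and 38.6 for siNT cells in DMSO. In the heat shock table it had 310.4, 293 and 299 in siJMJD6 cells, against 91.7, 90.3 and 84.9 in siNT cells and 91.4, 82.0 and 82.2 at basal. The heat shock table showed tight groups and the MG132 table loose ones, with the KO libraries at 2.58 in A and 51.6 in B. The siJMJD6 minus siNT differences were 3.16 ± 0.86 under MG132 and 1.75 ± 0.12 after heat shock, the 63rd highest of 9778 genes and the 170th highest of 9831. ADIRF shares its strand and 13194 bases with AGAP11, which reached at most 2.10 normalised counts.

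PSKH1, a kinase of the calmodulin-dependent family found at the Golgi, lies at chr16:67893272-67929678 on the plus strand. It had 236 and 114 normalised counts in siJMJD6 cells under MG132, against 2.10 and 14.1 in siNT cells under MG132, with 18.2 and 27.8 for siNT cells in DMSO. With heat shock it had 115, 90.1 and 88.3 in siJMJD6 cells, against 14.4, 14.5 and 10.2 in siNT cells and 6.54, 9.58 and 12.3 at basal. KO cells under MG132 had 17.9 and 16.5. The siJMJD6 libraries were the highest in both tables. Their difference from siNT was 4.59 ± 0.62 under MG132, the 7th highest of 9778 genes, and 2.82 ± 0.27 after heat shock, the 30th highest of 9831. The siNT values under MG132 were low, and the difference there was 3.36 with a pseudocount of 10 and 3.45 to 5.74 with 1 library left out. CTRL, the chymotrypsin-like protease gene on the opposite strand, overlaps 2039 bases of PSKH1 and reached at most 10.96 normalised counts in any library.

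**Figure D2:**
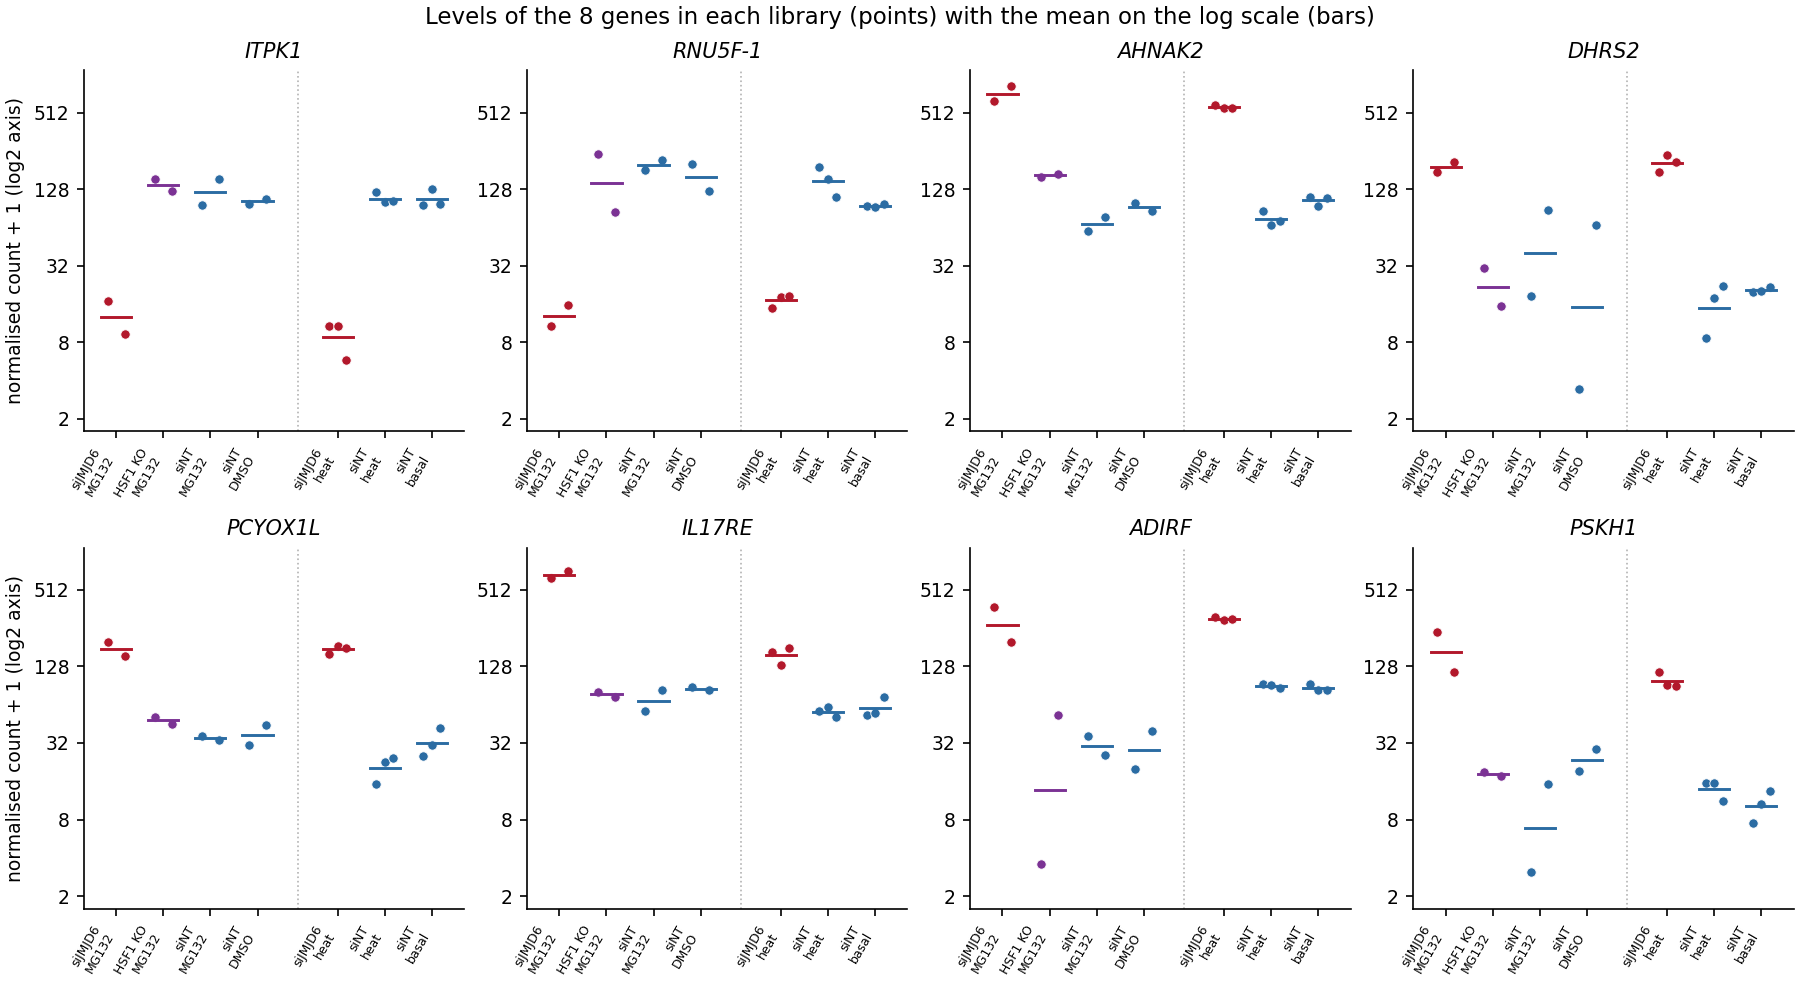
Normalised count plus 1 of each of the 8 genes (log2 axis, 1 panel per gene) in all 17 libraries, grouped on the x axis by group, with points for libraries and bars for the mean on the log scale. The siJMJD6 libraries are the lowest for ITPK1 and RNU5F-1 and the highest for the other 6 genes in both tables.

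In both siJMJD6 contrasts with stressed siNT cells, the groups of all 8 genes did not overlap. Over all genes, groups did not overlap in 53.1% of the genes tested under MG132 and in 54.0% after heat shock, and limma called 13.6% and 46.4% at an adjusted p under 0.05. Since the genes were chosen on these contrasts, nothing is read from their count. Against HSF1 KO cells, which received MG132 as the siJMJD6 cells did, the siJMJD6 differences were -3.46 ± 0.36 for ITPK1, -3.47 ± 0.44 for RNU5F-1, 2.14 ± 0.26 for AHNAK2 and 3.12 ± 0.27 for IL17RE. They were 3.13 ± 1.00 for DHRS2, 1.87 ± 0.33 for PCYOX1L, 4.31 ± 0.86 for ADIRF and 3.18 ± 0.62 for PSKH1. Under the same inhibitor the 8 genes thus stood at different levels in siJMJD6 cells and in HSF1 KO cells. The genes were chosen to be extreme in these siJMJD6 libraries, which favours separation from any other group. No conclusion is drawn from it.

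Against siNT cells without stress, siJMJD6 cells kept the same directions. Under MG132 and set against DMSO, the differences ran over the 6 higher genes between 2.25 ± 0.33 for PCYOX1L and 3.66 ± 1.00 for DHRS2. After heat shock and set against basal cells, they ran between 1.39 ± 0.16 for IL17RE and 3.31 ± 0.25 for DHRS2. ITPK1 differed by -3.03 ± 0.36 from DMSO and by -3.60 ± 0.22 from basal, and RNU5F-1 by -3.61 ± 0.44 and -2.47 ± 0.18. These comparisons share the siJMJD6 libraries with those above.

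**Figure D3:**
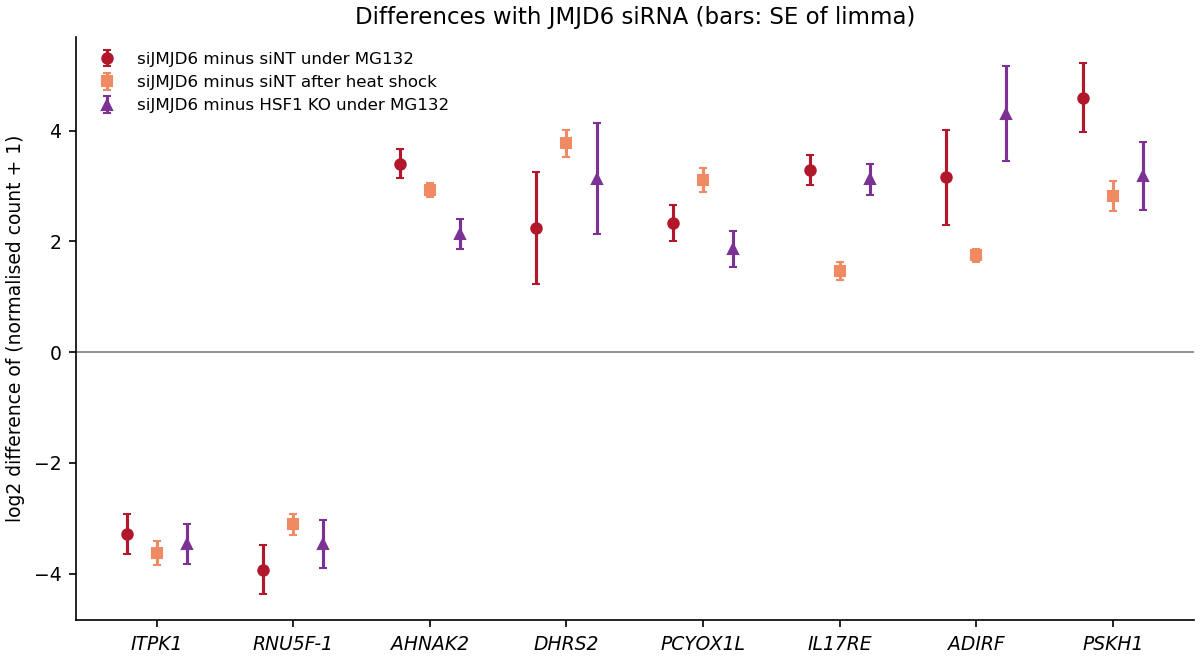
Log2 differences of the normalised count plus 1 (y axis) for the 8 genes (x axis) in contrasts of siJMJD6 cells with other groups, with points for estimates and bars for the SE of limma. ITPK1 and RNU5F-1 lie below 0 and the other 6 genes above 0 in each contrast drawn, and DHRS2 and ADIRF have the widest bars under MG132.

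Sums of marker genes also differed between siJMJD6 cells and siNT cells under the same stress. Such differences were common, as groups did not overlap in 53.1% of single genes under MG132 and in 54.0% after heat shock. The summed epithelial markers, 10 of 10 in the tables, ran between 3380 and 3609 normalised counts in siJMJD6 cells after heat shock, against 2759 to 3100 in siNT cells after heat shock. Under MG132 they ran between 2530 and 2838 in siJMJD6 cells, against 1629 to 2419 in siNT cells. Unstressed siNT cells held 3207 to 3401 at basal, which overlaps the siJMJD6 cells after heat shock, and 1828.5 to 2343 in DMSO. The summed mesenchymal markers, 11 of 12 in the tables, ran between 964 and 1076 in siJMJD6 cells after heat shock, against 1201 to 1243 in siNT cells, and between 632 and 816 in siJMJD6 cells under MG132, against 936 to 1012 in siNT cells. Unstressed siNT cells held mesenchymal sums of 1241 to 1342 at basal and 1073 to 1099 in DMSO. HSF1 KO cells under MG132 held epithelial sums of 2253 to 2342 and mesenchymal sums of 931 to 944. High genes such as KRT18 weigh heavily in the sums, and the directions of single markers are not given. The part of the markers in the differences of the 8 genes was not tested. In bulk RNA fewer cells of a type and less RNA per cell cannot be told apart.

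HSF1 KO cells were compared with siNT cells under MG132, with all genes of the table in 1 limma fit. No siRNA is named for the KO cells, so HSF1 loss and transfection cannot be told apart in the KO comparisons. AHNAK2 was the 1 gene of the 8 that was called against siNT cells under MG132, where 1.28% of 9778 genes were called. It averaged 163 ± 5.92 normalised counts in KO cells and 67.6 ± 12.6 in siNT cells (SD, n = 2 each), a rise of 1.27 ± 0.26 (SE) on the log2 scale with an adjusted p of 0.0371. The siNT libraries of this comparison are among those on which the genes were chosen. That choice favours low siNT values for AHNAK2, and so a rise in KO cells. The call was lost without either KO library (adjusted p = 0.209 without A and 0.267 without B), without siNT MG132 library 1 (0.234) or 2 (0.0841), without DMSO library 1 (0.0569) or 2 (0.0528), and with no filter on low values (0.118). Over 13 alternatives its adjusted p ran from 0.0204 to 0.267 while the difference stayed between 1.08 and 1.46.

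The other 7 genes were not called in KO cells. PSKH1 differed by 1.41 ± 0.62 (adjusted p = 0.361), and 2 of the 8 genes, AHNAK2 and PSKH1, had an unadjusted p under 0.05. ADIRF differed by -1.14 ± 0.86 (adjusted p = 0.628), with 51.6 normalised counts in KO library B and 2.58 in A. The difference was -3.08 without B and 0.79 without A, each resting on 1 KO library. The differences were -0.89 ± 1.00 for DHRS2 and -0.46 ± 0.44 for RNU5F-1. They were 0.46 ± 0.33 for PCYOX1L, 0.18 ± 0.36 for ITPK1 and 0.17 ± 0.27 for IL17RE.

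Set against siNT cells in DMSO, a comparison that shares no library with the choice of the genes but differs in MG132 and the siRNA as well as in HSF1, KO cells under MG132 showed 0 called genes of the 8 in limma, where 0.931% of all genes were called. At an unadjusted p under 0.05 there was 1, AHNAK2, with a difference of 0.83 ± 0.26 (adjusted p = 0.192, and 0.0836 to 0.599 over 13 alternatives). AHNAK2 averaged 163 ± 5.92 normalised counts in these KO cells and 91.7 ± 9.98 in DMSO (SD, n = 2 each).

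MG132 was set against DMSO in siNT cells, whose MG132 libraries are shared with the choice of the genes. That choice favours low MG132 values for genes higher with siJMJD6, such as PSKH1. Limma called 0 of the 8 genes, where 0.266% of all genes were called. PSKH1 alone had an unadjusted p under 0.05, with 2.10 and 14.1 normalised counts under MG132, against 18.2 and 27.8 in DMSO, and a difference of -1.78 ± 0.62 (adjusted p = 0.653). AHNAK2 differed by -0.44 ± 0.26 and DHRS2 by 1.41 ± 1.00, and the remaining 5 genes by between -0.32 ± 0.27 for IL17RE and 0.32 ± 0.44 for RNU5F-1. With a median SE of 0.39 over all genes of this table, changes of the size of 1 SE were not detectable at 2 libraries a group.

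Heat shock was set against basal siNT cells, with 3 libraries a group and a median SE of 0.19. Of the 8 genes 2 were called, 1 higher and 1 lower, where 4.09% of 9831 genes were called. The stressed siNT libraries are again among those on which the genes were chosen. That choice favours low stressed siNT values for genes higher with siJMJD6 and high ones for RNU5F-1. The directions called below are therefore those that the choice favours. For comparison, JMJD6 itself rose by 1.10 ± 0.18 (adjusted p = 0.000103), with 209, 210.2 and 253 normalised counts after heat shock and 102, 105 and 104 at basal.

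RNU5F-1 rose after heat shock, averaging 151 ± 40.6 normalised counts and 93.9 ± 2.69 at basal (SD, n = 3 each), a difference of 0.64 ± 0.18 with an adjusted p of 0.0381. The stressed libraries were spread from 109.6 to 191. The call was lost without basal library 1 (adjusted p = 0.123), 2 (0.127) or 3 (0.0734), without heat shock library 1 (0.350) or 2 (0.168), and with no filter (0.0519), and its adjusted p over 15 alternatives ran from 0.00718 to 0.350.

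AHNAK2 fell after heat shock, averaging 73.6 ± 10.1 normalised counts and 104 ± 9.01 at basal (SD, n = 3 each), a difference of -0.50 ± 0.12 with an adjusted p of 0.0109. The call was lost without basal library 1 (adjusted p = 0.0659) or heat shock library 2 (0.106), and when only these 2 groups entered the fit (0.0676), and the range over 15 alternatives was 0.00303 to 0.106. In siJMJD6 cells after heat shock AHNAK2 stood at 550.1 to 585, above both.

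PCYOX1L was close to the threshold, with 14.4, 21.6 and 23.4 normalised counts after heat shock, against 24.2, 30.0 and 40.9 at basal. It differed by -0.65 ± 0.21 (adjusted p = 0.0768) and was called without basal library 1 (0.0318), without heat shock library 3 (0.0385) and with the replicate number as a block (0.0467), within a range of 0.0318 to 0.376 over 15 alternatives. At an unadjusted p under 0.05 there were 3 genes, RNU5F-1, AHNAK2 and PCYOX1L. The other 5 genes differed by between -0.46 ± 0.25 for DHRS2 and 0.44 ± 0.27 for PSKH1, with ITPK1 at 0.02 ± 0.22.

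**Figure D4:**
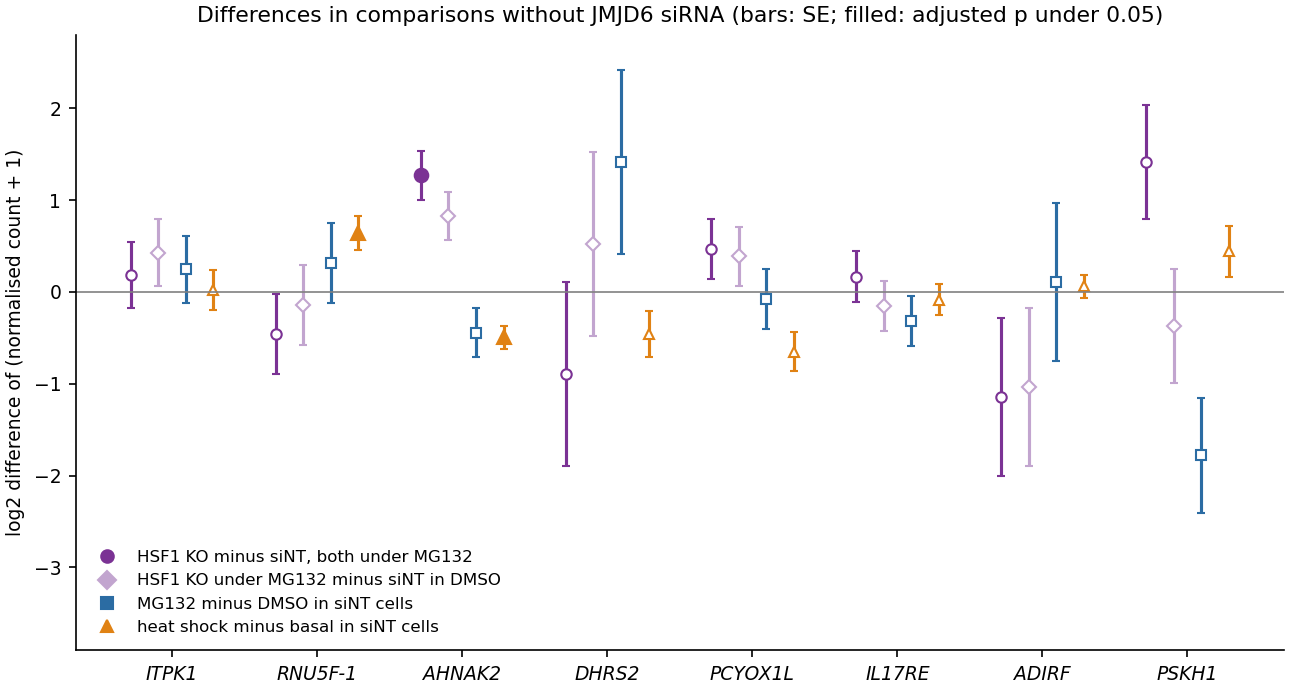
Log2 differences of the normalised count plus 1 (y axis) for the 8 genes (x axis) in the 4 comparisons without JMJD6 siRNA, with points for estimates, bars for the SE of limma and filled points where the adjusted p was under 0.05. Filled points are AHNAK2 in HSF1 KO cells against siNT cells under MG132, and RNU5F-1 and AHNAK2 in heat shock against basal.

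Related genes were followed from lists drawn up for each of the 8 genes, and the members of these lists moved in both directions. After heat shock, siJMJD6 against siNT, 24 of 100 tested relatives rose and 28 fell in limma's test, beside 2107 genes that rose and 2450 that fell of 9831. Under MG132, 15 of 102 rose and 9 fell, beside 608 that rose and 719 that fell of 9778. Named relatives were called under every alternative run unless lost calls are given.

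Among inositol phosphate kinases and phosphatases, the relatives of ITPK1, 2 rose and 3 fell of 15 after heat shock, and the median difference was -0.11, beside -0.03 for all genes. Without siJMJD6 library 2, 1 rose. IMPA1, an inositol monophosphatase, averaged 35.1 normalised counts in siJMJD6 cells and 72.8 in siNT cells and fell by 1.04 ± 0.18 (adjusted p = 9.03e-06). IMPAD1, which removes phosphate from nucleotide by-products of sulfation, fell by 1.02 ± 0.15 (adjusted p = 1.14e-06), and PPIP5K2, which makes inositol pyrophosphates, by 0.82 ± 0.16 (adjusted p = 9.77e-05). Under MG132 0 rose and 1 fell of 16, IMPA1 at -1.497 ± 0.30 (adjusted p = 0.00809), a call lost without siNT MG132 library 1 (0.0836). Without siJMJD6 library 2, 1 rose and 2 fell, and the median over all libraries was -0.03, beside -0.05 for all genes.

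Of the small nuclear and other short noncoding RNAs set beside RNU5F-1, 5 were tested after heat shock, of which 4 rose and 1 fell, with a median of 1.31, and 0 fell without siNT heat shock library 1 or 2 or siJMJD6 library 2 or 3, or with only the 2 groups compared. RN7SL1 and RN7SL2, near-identical RNA components of the signal recognition particle whose reads the counting could split between them, rose by 1.31 ± 0.15 (adjusted p = 3.27e-09) and 1.71 ± 0.22 (adjusted p = 4.92e-08). RN7SK, which holds back the elongation factor P-TEFb, averaged 32.9 normalised counts in siJMJD6 cells and 9.18 in siNT cells, a rise of 1.74 ± 0.36 (adjusted p = 0.000154). Under MG132 3 of 7 rose, with a median of 0.46, while 0 did without siNT MG132 library 1 or siJMJD6 library 1, and 1 did without KO library A or B or with only the 2 groups compared. RPPH1, the RNA of ribonuclease P, rose by 1.55 ± 0.33 (adjusted p = 0.0107), a call lost without siNT MG132 library 1 (0.0733) or siJMJD6 library 1 (0.0591). RNU6ATAC, of the minor spliceosome, rose by 3.11 ± 0.86 (adjusted p = 0.0315) and RMRP, the RNA of ribonuclease MRP, by 2.68 ± 0.78 (adjusted p = 0.0395). RNU6ATAC averaged 18.6 normalised counts in siJMJD6 cells and 1.89 in siNT cells, and RMRP 12.7 and 0.977. The siNT averages lay below the filter value of 10, so these sizes depend on the pseudocount of 1. RNU6ATAC lost its call in 7 of 14 alternatives, including leaving out siNT MG132 library 1 (0.199), siJMJD6 library 1 (0.145) or 2 (0.0559) or KO library A (0.0627) or B (0.0632). RMRP lost it in 8, including leaving out siNT MG132 library 1 (0.120) or 2 (0.102), siJMJD6 library 1 (0.220) or KO library A (0.0832) or B (0.0811).

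Among AHNAK and its annexin and S100 partners, 3 rose and 3 fell of 10 after heat shock, with a median of -0.24, and 1 fell without siJMJD6 library 2 or with quantile normalisation. AHNAK itself averaged 191 normalised counts in siJMJD6 cells and 139.9 in siNT cells, a rise of 0.47 ± 0.14 (adjusted p = 0.00577) that was lost without heat shock siNT library 1 (0.103). S100A11, a calcium-binding partner of annexin A1, rose by 0.46 ± 0.10 (adjusted p = 0.000309), and ANXA2, annexin A2, fell by 0.28 ± 0.08 (adjusted p = 0.00633). Under MG132 2 rose and 0 fell of 10, with a median of 0.51, and S100A11 averaged 471 in siJMJD6 cells and 122 in siNT cells, a rise of 1.96 ± 0.28 (adjusted p = 0.00105). ANXA5, annexin A5, rose by 0.99 ± 0.28 (adjusted p = 0.0368), but was not called without DMSO library 1 or 2, siNT MG132 library 1 or 2, siJMJD6 library 2 or KO library A or B, with no filter or with only the 2 groups compared (adjusted p of up to 0.133).

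Short-chain dehydrogenases, the family of DHRS2, gave 7 that rose and 2 that fell of 22 after heat shock, and 6 that rose and 1 that fell of 21 under MG132. The medians were 0.01 and 0.38. DHRS3, which reduces retinal to retinol, averaged 238 normalised counts in siJMJD6 cells and 74.8 in siNT cells after heat shock, a rise of 1.66 ± 0.14 (adjusted p = 5.56e-12), and rose by 2.68 ± 0.40 under MG132 (adjusted p = 0.00142). RDH10, which oxidises retinol to retinal, rose by 1.63 ± 0.18 (adjusted p = 4.19e-09) after heat shock, and DECR1, of mitochondrial fatty acid oxidation, by 1.54 ± 0.14 (adjusted p = 1.80e-11). CBR3, a carbonyl reductase, averaged 176 in siJMJD6 cells and 21.7 in siNT cells under MG132, a rise of 2.96 ± 0.36 (adjusted p = 0.000352). DHRS7B rose there by 1.75 ± 0.42 (adjusted p = 0.0191), a call lost without siNT MG132 library 1 (0.144), without siJMJD6 library 1 (0.0657) and with no filter (0.0574). Under MG132, 3 of the family rose without siNT MG132 library 1 and 2 with no filter, and 0 fell without siNT MG132 library 1 or 2, siJMJD6 library 2 or KO library A or B, with no filter or with only the 2 groups compared. After heat shock 1 fell without any single siNT heat shock library, without siJMJD6 library 1 or 3 or with quantile normalisation, and 4 fell with no filter.

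Of the enzymes of protein prenylation and prenylcysteine turnover, set beside PCYOX1L, 0 rose, 8 fell and 4 were not called of 12 after heat shock in limma's test, where 46.4% of all genes were called, with 0 that rose at an unadjusted p under 0.05, and the median was -0.58, beside -0.03 for all genes. CHML, an escort protein that presents RAB proteins for prenylation, averaged 27.2 normalised counts in siJMJD6 cells and 85.5 in siNT cells and fell by 1.63 ± 0.18 (adjusted p = 2.05e-09). FNTA, a subunit shared by 2 of the prenyl transferases, fell by 0.85 ± 0.18 (adjusted p = 0.000167), and RABGGTA, the alpha subunit of the enzyme that prenylates RAB proteins, fell by 1.195 ± 0.25 (adjusted p = 0.000168). With MG132, where 13.6% of all genes were called, 2 of the 12 fell and limma called none of the other 10, with a median of -0.74 and 0 that rose at an unadjusted p under 0.05. There CHML was at -1.66 ± 0.48 (adjusted p = 0.0376) and RABGGTA at -1.79 ± 0.36 (adjusted p = 0.00809). The call of RABGGTA was lost without siNT MG132 library 1 (0.0553). That of CHML was lost without siNT MG132 library 1 (0.0978) or 2 (0.159), siJMJD6 library 1 (0.151) or KO library A (0.0693) or B (0.0689), with a pseudocount of 10 (0.0537), with no filter (0.0945) and with only the 2 groups compared (0.0983).

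Among interleukin 17 receptors, ligands, adaptors and targets, 0 rose and 3 fell of 8 after heat shock, while IL17RE itself was higher, with 2 that rose at an unadjusted p under 0.05 and 1 called higher without siNT heat shock library 2 or 3 or siJMJD6 library 1 or 2, with either other scaling or with the replicate block. With a pseudocount of 10, 2 were called higher. Those that fell were IL17RC, the chemokine gene CXCL1, a target of interleukin 17, at -1.44 ± 0.40 (adjusted p = 0.00372), and the adaptor TRAF5 at -1.06 ± 0.32 (adjusted p = 0.00658). CXCL1 averaged 3.51 normalised counts in siJMJD6 cells and 11.2 in siNT cells. Under MG132 limma called 0 of 8, and 0 had an unadjusted p under 0.05, while without siNT MG132 library 2 it called 1 that rose. The medians were -0.23 after heat shock and -0.14 under MG132.

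Genes of adipogenesis and lipid storage, set beside ADIRF, moved both ways, with 7 that rose and 4 that fell of 17 after heat shock and 4 and 4 of 17 under MG132. CEBPA, a transcription factor of fat cell formation, averaged 175 normalised counts in siJMJD6 cells and 46.7 in siNT cells after heat shock, a rise of 1.88 ± 0.16 (adjusted p = 1.14e-11), and rose by 1.93 ± 0.32 under MG132 (adjusted p = 0.00237). SCD, the desaturase that makes oleate, averaged 394 in siJMJD6 cells and 1109 in siNT cells after heat shock and fell by 1.48 ± 0.09 (adjusted p = 7.05e-16), and fell by 1.67 ± 0.26 under MG132 (adjusted p = 0.00147). FASN, fatty acid synthase, fell by 0.76 ± 0.10 after heat shock (adjusted p = 8.06e-08). The medians were 0.10 and -0.13. PNPLA2, the lipase that opens triglyceride breakdown, rose by 1.52 ± 0.31 under MG132 (adjusted p = 0.00826), a call lost without siNT MG132 library 1 (0.0504). Under MG132 1 rose and 1 fell without siNT MG132 library 1, 2 rose and 1 fell with no filter, and 2 rose and 2 fell with only the 2 groups compared. Without DMSO library 1 or 2, siNT MG132 library 2 or siJMJD6 library 1 or 2, 2 rose, and without siJMJD6 library 1 or KO library A or B, 2 fell.

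Calmodulin-dependent protein kinases, the family of PSKH1, gave 1 that rose and 4 that fell of 11 after heat shock, with a median of -0.16, and 2 that fell without siJMJD6 library 1. STK17A, a kinase related to death-associated kinases, rose by 0.53 ± 0.12 (adjusted p = 0.000354), and CAMK2D, a subunit of calmodulin kinase II, fell by 0.67 ± 0.16 (adjusted p = 0.000761). CAMKV, a pseudokinase, averaged 2.39 normalised counts in siJMJD6 cells and fell by 2.09 ± 0.52 (adjusted p = 0.00118). Under MG132 0 rose and 1 fell of 11, with a median of -0.18, and 3 fell with the replicate block. The 1 was CAMK2B, another calmodulin kinase II subunit, which had 6.17 in siJMJD6 cells and 64.4 in siNT cells and fell by 3.45 ± 0.57 (adjusted p = 0.00255).

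**Figure D5:**
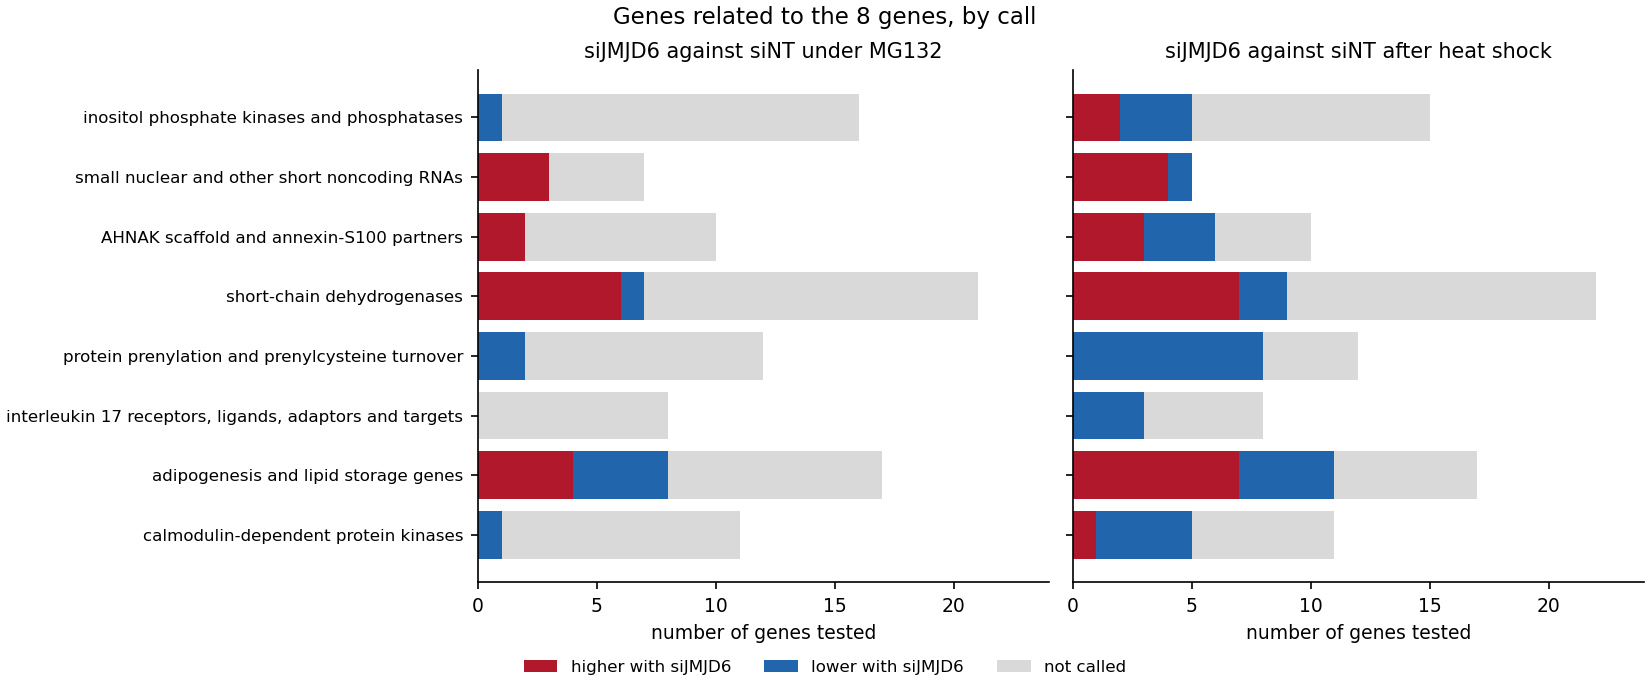
Number of tested genes (x axis) in each of the 8 lists of relatives (y axis) that were called higher, called lower or not called in siJMJD6 cells against siNT cells, under MG132 on the left and after heat shock on the right. Prenylation genes hold 8 that fell and 0 that rose of 12 after heat shock, beside 2450 that fell and 2107 that rose of 9831 genes. Short-chain dehydrogenases, the longest list, hold 6 that rose of 21 under MG132. Short noncoding RNAs hold 3 of 7 there, and all genes 608 of 9778.

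In HSF1 KO cells against siNT cells under MG132, 1 relative rose and 3 fell of 102, beside 1.28% called of all genes, and 26 had an unadjusted p under 0.05. PLIN2, which coats lipid droplets, averaged 999 normalised counts in KO cells and 285 in siNT cells, a rise of 1.82 ± 0.30 (adjusted p = 0.00735). FABP4, a fatty acid carrier of fat cells, averaged 35.7 in KO cells and 186 in siNT cells and fell by 2.35 ± 0.36 (adjusted p = 0.00430). RPPH1 fell by 1.54 ± 0.33 (adjusted p = 0.0432), and CAMK1, a calmodulin-dependent kinase, averaged 0.00965 normalised counts in KO cells and 14.5 in siNT cells (adjusted p = 0.0405). Against DMSO, beside 0.931% called of all genes, the called relatives were PLIN2, at 2.31 ± 0.30, and FABP4, at -2.54 ± 0.36 (adjusted p = 0.00182 and 0.00314). None of these calls held under all alternatives, and all were lost with no filter on low values. Against siNT cells under MG132, PLIN2 was not called without siNT MG132 library 1 (0.112), KO library A (0.0742) or KO library B (0.129), and FABP4 was not called without siNT MG132 library 1 (0.0854) or KO library A (0.0877). RPPH1 lost its call in 8 of 13 alternatives, including leaving out DMSO library 1 (0.0670) or 2 (0.0634), siNT MG132 library 1 (0.181) or 2 (0.189) or KO library A (0.0703) or B (0.389). CAMK1 lost it in 7, including leaving out siNT MG132 library 1 (0.250) or 2 (0.131) or KO library A (0.180) or B (0.203). Against DMSO, FABP4 was not called without DMSO library 1 (0.0621) or KO library A (0.0655).

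MG132 against DMSO gave 0 called relatives of 102 in limma, beside 0.266% of all genes, and 2 at an unadjusted p under 0.05. Heat shock against basal gave 2 that rose and 3 that fell of 100, beside 4.09% called of all genes, with 20 at an unadjusted p under 0.05. ANXA1, annexin A1, averaged 341 normalised counts after heat shock and 200.2 at basal, a rise of 0.76 ± 0.10 (adjusted p = 2.83e-06). DGAT2, which makes triglycerides, averaged 33.2 after heat shock and 99.2 at basal and fell by 1.54 ± 0.18 (adjusted p = 1.86e-07), and both were called under every alternative. RN7SL1 rose by 0.61 ± 0.15 (adjusted p = 0.00784), a call lost without basal library 2 (0.0958) or heat shock library 1 (0.0520). CEBPA fell by 0.68 ± 0.16 (adjusted p = 0.00891), a call lost without basal library 3 (0.0919). RDH13, a retinol dehydrogenase, fell by 0.69 ± 0.19 (adjusted p = 0.0219), a call lost without basal library 1 (0.185) or 2 (0.0587) or heat shock library 1 (0.116) or 3 (0.0682).

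Across the 17 libraries, with values centred on the mean of each table, the 6 genes that were higher with siJMJD6 correlated with each other over 15 pairs with r between 0.648 and 0.946 (median 0.809). ITPK1 and RNU5F-1 correlated with r = 0.929, and r between the 2 sets ran from -0.941 to -0.788. The libraries share their groups, so these values restate the siJMJD6 order and carry no test. The genes most like each of the 8 were named among 4386 genes, or 4387 for PSKH1, that averaged at least 50 normalised counts in both tables. ITPK1 was most like DHX33 and POLR2G (r = 0.980 each) and RNU5F-1 most like OAZ1 (0.979) and PRR11 (0.971). AHNAK2 was most like SDC4 (0.970), PCYOX1L most like SNX12 (0.965) and IL17RE most like ETFB (0.968). DHRS2 was most like ATF5 (0.956), ADIRF most like MPG (0.949), and PSKH1 most like the small noncoding RNA SNAR-G1 (0.952).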

How the data were processed

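Per the labels, RNA of PC3M cells was made into QuantSeq FWD libraries, which read tags near the 3′ end. Per the submitters' processing notes, FastQC 0.11.2, STAR 2.6.0, HTSeq (version not given in the sources used here) and build hg38 were used, without their order or settings. The signal values are normalised counts as the authors deposited them, in separate tables for MG132 (14085 genes) and heat shock (13616 genes). The sources used here do not give strand setting, annotation or scaling. Low values lay near whole multiples of 1 step for between 18.9% and 100% of values per library, so reads were not recovered and depth is unknown. All 17 columns were matched to a label.

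Log2 of the value plus 1 was fitted with limma 3.58.1 (R 4.3.3, trend) within each table, all groups sharing 1 spread. Genes were tested with at least 10 normalised counts in 2 (MG132) or 3 (heat shock) libraries, leaving 9778 and 9831. P-values were adjusted by Benjamini-Hochberg per comparison, and called under 0.05. The fit was checked on simulated data. The 8 genes and the lists were chosen with earlier results of these data known. From each list, up to 3 called genes with the smallest adjusted p were named in each comparison, and none where none was called, although the rule allowed 1. IL17RC, C1orf228 and other neighbours were named for their place in the genome. Alternatives were a pseudocount of 10, no filter, 2 other scalings, only the 2 groups compared, the replicate block and leaving out each library. Some sequences and marker genes are not reported here.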

Additional observations from a re-analysis of the deposited data

How the results depend on the processing

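The siJMJD6 contrasts kept their direction for all 8 genes under every alternative run. The genes were chosen on such contrasts and their groups did not overlap, so this direction could hardly change and is no check. Sizes did move. With a pseudocount of 10, RNU5F-1 was at -3.22 and PSKH1 at 3.36 under MG132, and ITPK1 at -2.70 and DHRS2 at 3.13 after heat shock. Counts of genes called over the whole table moved most. With no filter on low values they were 6 for MG132 against DMSO, 29 for HSF1 KO against siNT, 6 for HSF1 KO against DMSO and 675 for siJMJD6 against siNT under MG132. With only the 2 groups compared they were 213, 224 and 687 for the last 3 of these. Leaving out 1 library gave 10 to 31, 43 to 185, 31 to 141 and 351 to 1268 genes for the 4 comparisons, and 273 to 428 for heat shock against basal. Of the 8 genes, 0 were called for HSF1 KO against siNT with no filter and 0 to 1 with 1 library left out, while heat shock against basal gave 1 with no filter, 1 with only the 2 groups and 0 to 3 with 1 library left out. Under quantile normalisation ITPK1 was at -0.00020 for heat shock against basal.

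Log2 differences that changed sign with 1 library left out had these ranges. For MG132 against DMSO they were -0.72 to 3.55 for DHRS2, -0.38 to 0.59 for ADIRF, -0.025 to 0.66 for RNU5F-1, -0.35 to 0.19 for PCYOX1L and -0.087 to 0.58 for ITPK1. For HSF1 KO against siNT they were -0.15 to 0.52 for ITPK1, -0.11 to 0.44 for IL17RE, -2.01 to 0.23 for DHRS2, -3.08 to 0.79 for ADIRF and -1.22 to 0.30 for RNU5F-1. For HSF1 KO against DMSO they were -0.90 to 0.62 for RNU5F-1, -1.61 to 2.66 for DHRS2 and -2.98 to 0.90 for ADIRF. For heat shock against basal they were -0.062 to 0.16 for ITPK1 and -0.17 to 0.067 for IL17RE. None of these was called with all libraries, and the cause was not tested. Of the 723 values of named relatives under alternatives, 74 lost their call and none changed sign. The list counts and relatives were added to the alternatives after seeing the data.

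Same-numbered siRNA libraries correlated at 0.368, 0.318 and 0.0447 in the MG132 table, after subtraction of group means. Differently numbered ones there had the same values with a minus sign, as they must with 2 libraries a group. The numbers may therefore pair libraries of the MG132 table, which the main fit ignored. In the heat shock table same-numbered libraries correlated at -0.0348 to 0.0943 and differently numbered ones at -0.0773 to 0.0509, which shows no pairing. With the replicate block 41 genes were called for MG132 against DMSO (26 without it) and 420 for heat shock (402 without it). For siJMJD6 against siNT, 1811 were called under MG132 (1327 without it) and 4589 after heat shock (4557 without it). PCYOX1L was called for heat shock with the block (adjusted p = 0.0467). For the comparisons with KO cells no replicate block was fitted, since the KO libraries carry letters and no numbers. With 2 or 3 libraries a group and a median SE of 0.39 or 0.19, small changes of the 8 genes were not detectable, and the depth is unknown.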
